A study of Mus musculus with 11 samples.

Results

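The transcripts of 10 CXC chemokine genes (Cxcl1, Cxcl2, Cxcl3, Cxcl5, Cxcl9, Cxcl10, Cxcl12, Cxcl13, Cxcl14 and Cxcl16) were followed in fibroblasts sorted from mouse back skin and from wounds. The 10 genes were taken by symbol from the 47643 genes of the deposited expression table, with no threshold on their values, and all 10 were among the 11979 genes that passed the filter on low values and were tested. The table gives RPKM, the reads of a gene scaled by transcript length and library depth, in 11 libraries. These came from normal unwounded back skin (NS) and from excisional wounds at day 5 (5dw) of mice that overexpress the growth factor activin A (Act) and of wild-type mice (WT).

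Act mice carry human INHBA, the gene of the activin subunit, behind the keratin 14 promoter, a promoter of basal keratinocytes and not of fibroblasts. All animals were female F1 progeny of Act mice on the CD-1 background and C57BL/6 mice, aged 9 to 12 weeks, and the WT controls were littermates. WT NS, Act NS and WT 5dw had 3 libraries each and Act 5dw had 2, replicates 1 and 3, because its replicate 2 was excluded by the authors at quality control. Each library held RNA pooled from 3 animals, 100 ng for NS and 200 ng for 5dw. The skin was digested with an enzyme mix before live cells, per the labels positive for CD140a (PDGFRA) and negative for the leukocyte antigen CD45, for CD3, for CD11b and for F4/80 were sorted.

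Chemokines are small secreted proteins that bind G protein-coupled receptors and guide the migration of leukocytes. Those of the CXC family with a glutamate-leucine-arginine (ELR) motif ahead of the first cysteines, here Cxcl1, Cxcl2, Cxcl3 and Cxcl5, act through the receptor Cxcr2 and attract neutrophils. Cxcl9 and Cxcl10 are induced by interferons and attract activated T cells through Cxcr3, while Cxcl12 and Cxcl13 are made constitutively in many organs and act through Cxcr4 and Cxcr5.

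The genes are grouped on the genome, which bears on how their reads and their promoters compare. In GRCm38 the 4 ELR genes lie on the plus strand within 146.6 kb of chromosome 5, with Cxcl5 at chr5:90759360-90761624, Cxcl3 at chr5:90786103-90789600, Cxcl1 at chr5:90891241-90893115 and Cxcl2 at chr5:90903871-90905938. Cxcl9 (chr5:92321347-92328079) and Cxcl10 (chr5:92346638-92348889) follow on the minus strand of the same chromosome, and Cxcl13 lies at chr5:95956951-95961068 on the plus strand. The remaining genes lie apart, Cxcl12 at chr6:117168535-117181367 on the plus strand, and Cxcl16 at chr11:70453983-70459984 and Cxcl14 at chr13:56288643-56296551 on the minus strand.

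A RefSeq promoter of 300 bases was at hand for 8 of the 10 genes (GRCm38.p6; all but Cxcl5 and Cxcl16). The stretch from 120 to 31 bases before the start is shown, 5′ to 3′ on the strand of the gene, for the 4 promoters that held a match to the consensus of NF-kB, the factor that drives many inflammatory genes, with the overlapping matches in capitals.
Cxcl1 (plus strand, chr5:90891125-90891214): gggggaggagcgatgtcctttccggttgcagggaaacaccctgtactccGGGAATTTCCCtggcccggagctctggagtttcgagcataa
Cxcl2 (plus strand, chr5:90903779-90903868): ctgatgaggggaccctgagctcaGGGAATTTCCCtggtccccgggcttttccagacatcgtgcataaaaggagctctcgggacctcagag
Cxcl3 (plus strand, chr5:90785981-90786070): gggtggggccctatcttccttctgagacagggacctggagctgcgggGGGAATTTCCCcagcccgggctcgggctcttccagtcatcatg
Cxcl10 (minus strand, chr5:92348920-92349009): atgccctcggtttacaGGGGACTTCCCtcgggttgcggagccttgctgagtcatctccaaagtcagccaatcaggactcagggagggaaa
The longest run of letters that Cxcl1, Cxcl2 and Cxcl3 shared in these stretches was GGGAATTTCCC, 11 bases, which starts 71, 97 and 73 bases before their starts. It was picked because the 3 genes share it, and 14 of all 32851 promoters (0.0426%), searched on both strands, held it. The looser consensus was met on either strand by 8.46% of all promoters, and Cxcl10 held a match at 104 bases, shown above, and another at 159 bases before its start. A match describes letters in these windows and not a bound site.

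Library depth, worked out from the RPKM steps that 1 read makes, ran from 18649321 to 39702138 mapped reads, with the WT 5dw libraries the deepest. The members rested on 49 reads at the lowest (Cxcl13 in Act 5dw replicate 3) and 146160 at the highest. The mouse Inhba row, as a check of the labels, lay at 36.3 to 91.1 RPKM in Act NS against 3.40 to 6.93 in WT NS, and at 26.2 and 50.2 in Act 5dw against 15.8 to 24.0 in WT 5dw. Pdgfra, the sorting marker, lay at 29.6 RPKM or more in every library, and Ptprc, which encodes CD45, below 0.1 in all 11. The summed RPKM of 6 pan-immune markers was at most 1.71. Both NS libraries numbered 1 stood apart from the others of their group over all genes, with a chi-square of 71.5 to 98.7 per degree of freedom in 4 pairs of replicates against 49.9 and 61.0 in the 2 NS pairs without them. More genes fell than rose in the wound libraries, where the median log2FC of all tested genes was -0.40 in WT and -0.31 in Act.

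The members stood against this trend. In WT wounds 7 of the 10 chemokines rose and 2 fell (adjusted p under 0.05 by limma on log2(RPKM + 0.5)), while 9.45% of all tested genes rose and 48.8% fell, 58.3% in all. In Act wounds 5 rose and 2 fell, against 9.04% and 36.5% of all genes, 45.6% in all. Their median log2FC was 1.08 in WT and 0.66 in Act. All 4 ELR chemokines rose in both genotypes, Cxcl9 rose in both, Cxcl10 and Cxcl12 passed the threshold in WT, and Cxcl13 and Cxcl16 fell in both. Each of the 4 ELR genes was higher in all 5 wound libraries than in any of the 6 NS libraries, which held for 8.45% of all tested genes, and Cxcl13 and Cxcl16 were lower in all 5, which held for 38.9%. When the libraries were rescaled by median ratios, the median gene no longer moved (-0.0043 in WT and 0.0019 in Act), and calls over all genes split evenly, with 2684 higher and 2655 lower in WT and 2384 and 2492 in Act, against 1132 higher and 5846 lower in WT and 1083 and 4376 in Act without that step. Cxcl16 was not called on that scale and Cxcl12 was called in Act too.

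**Figure D1:**
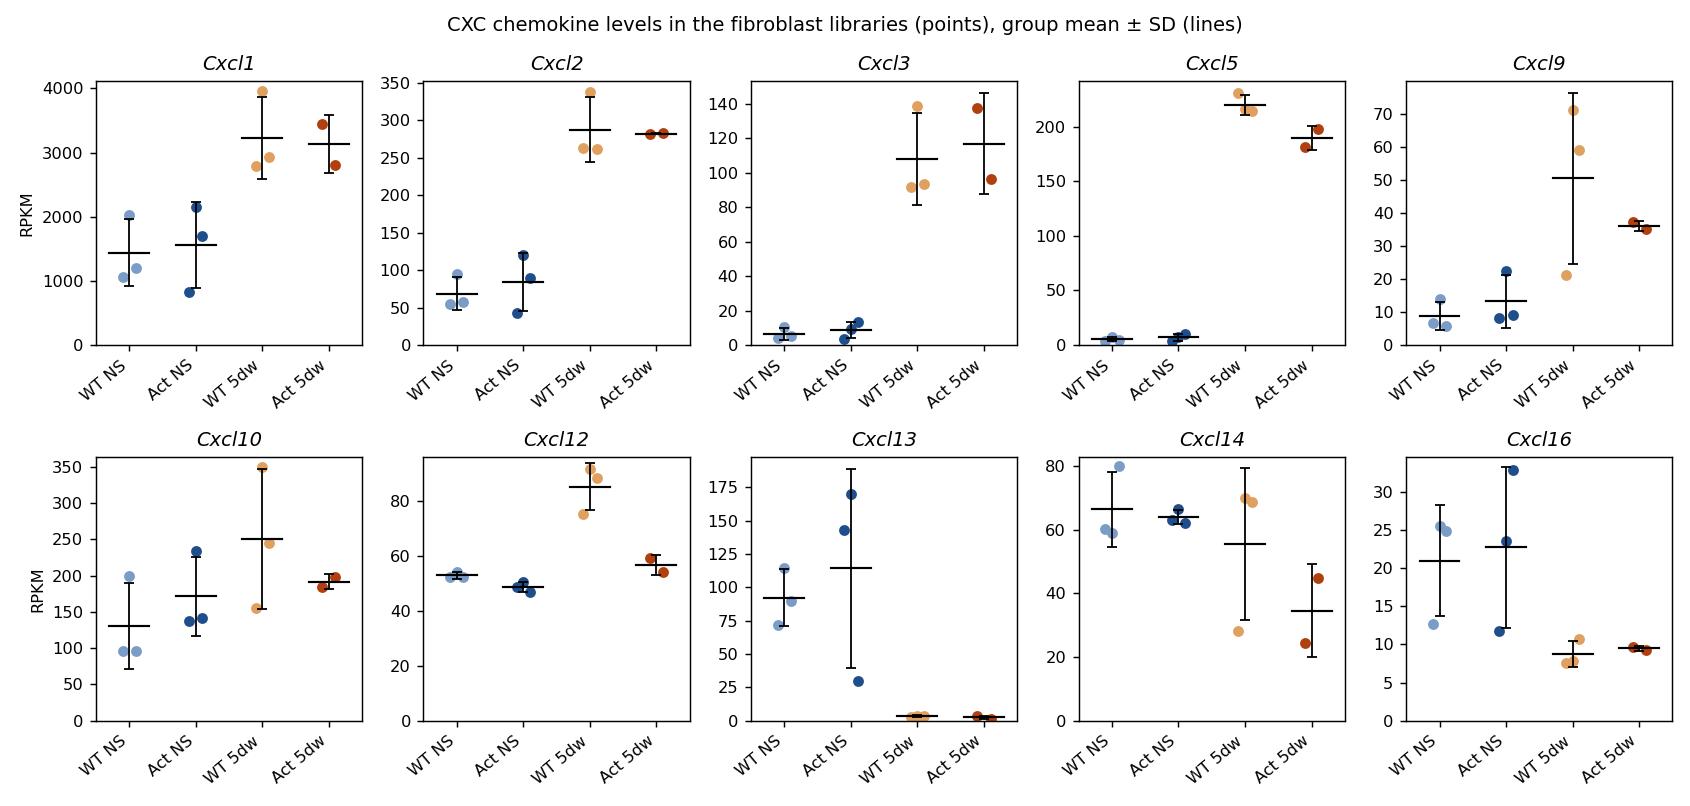
RPKM of the 10 CXC chemokines (vertical axes, each from 0) in the 4 groups, with 1 point for each of the 11 libraries and lines at the group mean ± SD. The wound libraries lie above all NS libraries for Cxcl1, Cxcl2, Cxcl3 and Cxcl5 and below them for Cxcl13 and Cxcl16, and the Act 5dw points of Cxcl12 lie below the WT 5dw points.

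Cxcl1, the neutrophil attractant also known as KC, was by far the most abundant member. WT NS gave 1066, 2034 and 1208 RPKM, and Act NS gave 831, 2157 and 1701. In wounds it reached 2787, 3959 and 2932 RPKM in WT and 3451 and 2811 in Act. It thus ranked among the 29 most abundant genes in every NS library and among the first 6 in every wound library. Its log2FC on wounding was 1.21 ± 0.34 (SE; adjusted p = 0.0116) in WT and 1.10 ± 0.38 (adjusted p = 0.0367) in Act. In Act the call was lost without Act NS replicate 1, Act 5dw replicate 1 or Act 5dw replicate 3 (adjusted p = 0.083, 0.173 and 0.0915), and the log2FC was 0.70 without Act NS replicate 1 and 0.70 with array weights. With all libraries kept it was also lost under quantile normalization (0.0884), with only the groups compared (0.0679), with array weights (0.0704) and with no filter on low values (0.141).

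Cxcl2, which shares its receptor with Cxcl1, lay at 54.6, 94.2 and 56.9 RPKM in WT NS and at 43.1, 120.1 and 89.2 in Act NS. Its wound levels were 263, 337 and 262 RPKM in WT and 281 and 283 in Act. The lowest wound library was thus above the highest NS library by more than the whole range of the NS libraries. Its log2FC was 2.09 ± 0.33 (adjusted p = 0.000431) in WT and 1.86 ± 0.37 (adjusted p = 0.00233) in Act.

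Cxcl3, a close relative of Cxcl2, was low in NS, with 3.82, 10.4 and 5.43 RPKM in WT and 3.78, 9.60 and 13.2 in Act. WT wounds held 91.9, 139 and 93.1 RPKM and Act wounds 137 and 96.1. The lowest wound library lay far above the highest NS library. Its log2FC was 4.02 ± 0.42 (adjusted p = 3.62e-05) in WT and 3.78 ± 0.47 (adjusted p = 0.000160) in Act. Cxcl2 and Cxcl3 share some transcript sequence, with 7.59% of the 31-base words of Cxcl2 also present in Cxcl3, so some reads could have been split between them. For Cxcl3 in NS that part need not be small, as WT NS replicate 1 held 98 reads of Cxcl3 against 2720 of Cxcl2. Its size was not tested.

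Cxcl5, the neutrophil attractant also called LIX, had the largest rise of the members in both genotypes. It lay at 3.66, 7.48 and 5.06 RPKM in WT NS and 3.70, 7.22 and 10.2 in Act NS, whereas WT wounds held 230.5, 216 and 214 and Act wounds 182 and 198. Its wound levels varied little, with the highest library 1.27 times the lowest, while the NS levels spanned 2.80 times. The log2FC was 5.28 ± 0.31 (adjusted p = 1e-06) in WT and 4.76 ± 0.34 (adjusted p = 5.78e-06) in Act.

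The NS libraries varied together for these genes. WT NS replicate 2 was the highest WT NS library for all 4 ELR chemokines, and Act NS replicate 1 was the lowest Act NS library for all 4. Across the 6 NS libraries the highest value was 2.60, 2.79, 3.48 and 2.80 times the lowest for Cxcl1, Cxcl2, Cxcl3 and Cxcl5, against 1.42, 1.29, 1.51 and 1.27 times across the 5 wound libraries. The summed RPKM of 10 immediate-early genes, a list added after the data were seen, was 5558 to 8905 in NS and 5534 to 6886 in 5dw. In WT wounds 1 of them rose, Ier3, and 3 fell, Junb, Atf3 and Zfp36, where 9.45% of all tested genes rose and 48.8% fell. In Act wounds Ier3 alone was called. Its RPKM was 137 to 230 in NS and 648 to 810 in 5dw. Its log2FC was 1.85 ± 0.19 (adjusted p = 3.48e-05) in WT and 1.94 ± 0.22 (adjusted p = 7.78e-05) in Act.

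Ratios between genes of 1 library do not depend on how the libraries are scaled. Cxcl2 stood at 4.63% to 5.57% of the Cxcl1 RPKM in the 6 NS libraries and at 8.16% to 10.1% in the 5 wound libraries. Cxcl3 stood at 0.359% to 0.773% of Cxcl1 in NS and 3.18% to 3.98% in wounds. Cxcl5 stood at 0.335% to 0.602% in NS and 5.26% to 8.27% in wounds. None of these ranges overlapped. The ELR genes thus rose unequally, those with the lowest NS levels by the most. Even so Cxcl1 alone made up 64.2% to 79.6% of the summed RPKM of the 10 members in NS and 73.7% to 79.0% in wounds. The 10 together amounted to 0.524% to 1.04% of all RPKM in NS and to 1.46% to 2.04% in wounds, and the 4 ELR genes to 68.1% to 84.9% and 88.0% to 92.7% of that sum. The other 6 chemokines summed to 301 to 567 RPKM in NS and 291 to 594 in 5dw, ranges that overlapped.

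**Figure D2:**
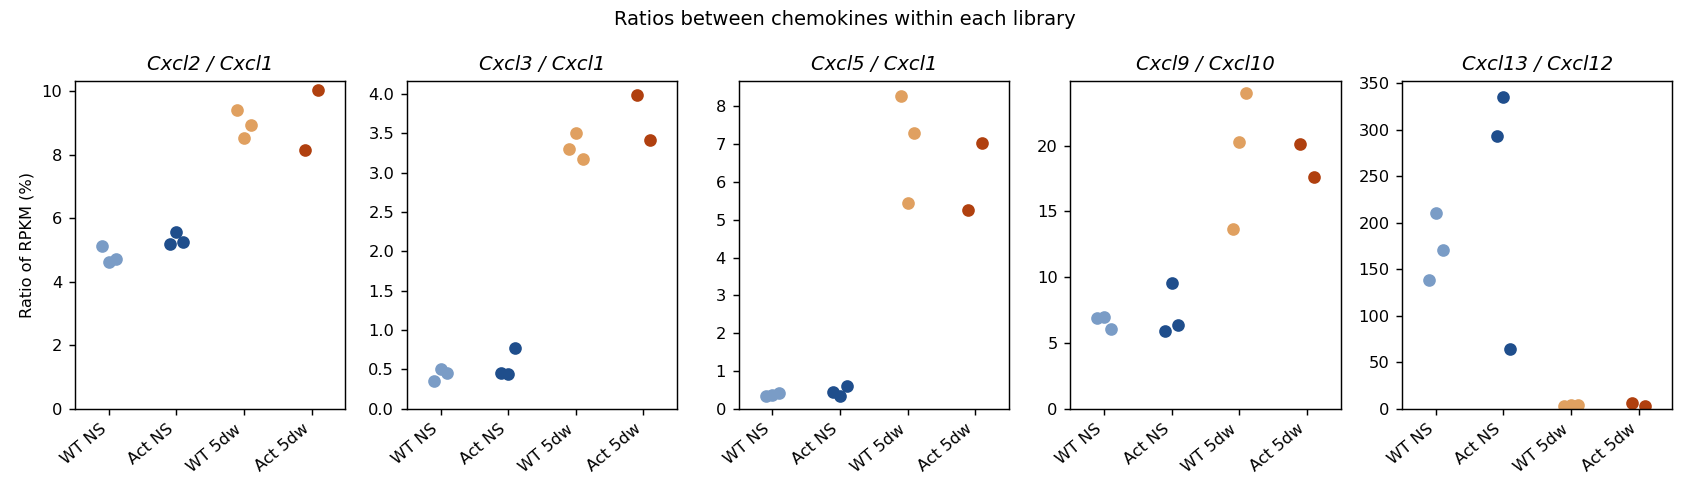
Ratio of the RPKM of 2 chemokines within the same library, in percent (vertical axes, each from 0), by group, with 1 point for each of the 11 libraries. Cxcl2, Cxcl3 and Cxcl5 relative to Cxcl1 and Cxcl9 relative to Cxcl10 are higher in every wound library than in every NS library, and Cxcl13 relative to Cxcl12 is lower.

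Of the interferon-inducible pair, Cxcl9 was at 6.69, 13.8 and 5.87 RPKM in WT NS and 8.12, 22.4 and 9.03 in Act NS. In wounds it lay at 21.3, 71.0 and 58.9 RPKM in WT and 37.2 and 35.0 in Act. WT 5dw replicate 1 was below Act NS replicate 2, so the tissues overlapped across genotypes, but within each genotype they did not. The log2FC was 2.38 ± 0.48 (adjusted p = 0.00188) in WT and 1.57 ± 0.54 (adjusted p = 0.0356) in Act. The Act call was lost without either Act 5dw library (adjusted p = 0.131 without replicate 1 and 0.123 without replicate 3) and without Act NS replicate 1 or 3 (0.0892 and 0.0938). It was also lost with array weights, where the log2FC was 1.01 (adjusted p = 0.169), and with no filter (0.0837).

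Cxcl10, also known as IP-10, was more abundant than Cxcl9 in every library. It lay at 96.6, 199 and 96.2 RPKM in WT NS, and at 138, 234 and 142 in Act NS. WT wounds held 156, 349.9 and 245 RPKM and Act wounds 185 and 199. The wound and NS libraries overlapped in both genotypes, but each WT 5dw library was above the WT NS library of its own number. Its log2FC was 0.95 ± 0.35 (adjusted p = 0.0349) in WT, a call that was lost without WT NS replicate 1 or 3 and without WT 5dw replicate 2 or 3 (adjusted p = 0.111, 0.123, 0.137 and 0.0798), with no filter (0.0805) and with only the groups compared (0.0531). With the replicate numbers as a block, a pairing inferred from weak correlations of these libraries, the adjusted p was 0.000636. In Act it was 0.21 ± 0.39 (adjusted p = 0.688), and its direction turned with array weights (-0.10). The ratio of Cxcl9 to Cxcl10 was nonetheless higher in all wound libraries, 13.7% to 24.0%, than in all NS libraries, 5.89% to 9.57%. Cxcl10 overlaps Art3 on the opposite strand, which shared 4.47% of the 31-base words of Cxcl10 and did not exceed 4.77 RPKM.

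Cxcl12, the stromal chemokine SDF-1 that retains and recruits Cxcr4-bearing cells, was the steadiest member in NS. It lay at 52.2, 54.4 and 52.4 RPKM in WT NS and 48.8, 50.6 and 46.8 in Act NS. In WT wounds it rose to 75.5, 91.7 and 88.6 RPKM, with a log2FC of 0.68 ± 0.12 (adjusted p = 0.000700). In Act wounds it was at 59.3 and 54.1 RPKM, both above the Act NS libraries but the second just below WT NS replicate 2, and the log2FC of 0.22 ± 0.13 missed the threshold (adjusted p = 0.194, 95% interval -0.07 to 0.50). After rescaling by median ratios the Act value was 0.57 (adjusted p = 0.00731).

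Cxcl13, the B cell attractant, fell the most of the members. It lay at 72.2, 115 and 89.5 RPKM in WT NS and at 143, 169.8 and 29.8 in Act NS. Wound libraries held 2.63, 3.86 and 3.74 RPKM in WT and 3.43 and 1.66 in Act. Act NS replicate 3, the lowest NS library, was still above every wound library. The log2FC was -4.56 ± 0.53 (adjusted p = 6.94e-05) in WT and -4.96 ± 0.60 (adjusted p = 0.000124) in Act, or -5.75 in Act without Act NS replicate 3. Its ratio to Cxcl12 was 63.8% to 336% in the NS libraries and 3.07% to 5.78% in the wound libraries. In sorted pools, fewer cells with a transcript and less transcript per cell cannot be told apart.

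Cxcl14, a chemokine of epithelia and stroma with no settled receptor, lay at 60.2, 59.1 and 79.9 RPKM in WT NS and 63.2, 66.5 and 62.2 in Act NS. Its wound values were spread, 28.0, 70.0 and 68.6 RPKM in WT and 24.3 and 44.9 in Act. Both Act wounds lay below every Act NS library, and WT 5dw replicate 1 stood with them and away from the other WT wounds. The log2FC of -0.35 ± 0.33 in WT (adjusted p = 0.371) and -0.94 ± 0.37 in Act (adjusted p = 0.0566) did not pass the threshold. The WT value was 0.10 after rescaling by median ratios, and over all alternative settings it ran from -0.58 to 0.10. WT 5dw replicates 2 and 3 lay within the range of the WT NS libraries, so the fall in WT rests on WT 5dw replicate 1. The Act value passed without WT 5dw replicate 1 (-0.94, adjusted p = 0.0107), and also with only the groups compared (0.0315) and in limma-voom (0.048). It was -1.38 without Act 5dw replicate 3, and over all alternative settings it ran from -1.38 to -0.505.

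Cxcl16, made as a membrane-bound form that acts through Cxcr6, lay at 12.6, 25.5 and 24.8 RPKM in WT NS and 11.8, 23.6 and 32.8 in Act NS. It fell to 7.63, 7.90 and 10.8 RPKM in WT wounds and to 9.71 and 9.26 in Act wounds. Both NS libraries numbered 1 lay close to the wound libraries, and the others well above them. The log2FC was -1.16 ± 0.35 (adjusted p = 0.0146) in WT and -1.10 ± 0.39 (adjusted p = 0.0382) in Act. Relative to the median of all genes these values were -0.76 and -0.80, and after rescaling by median ratios neither passed (-0.72 in WT, adjusted p = 0.0864, and -0.76 in Act, adjusted p = 0.111). Under quantile normalization neither passed (adjusted p = 0.0533 in WT and 0.0792 in Act), and in Act neither the fit of only the groups compared (0.0609) nor that with no filter (0.0857) called it. Without WT NS replicate 2 or 3 the adjusted p in WT was 0.0533 and 0.0575. In Act it was 0.0945 and 0.117 without Act NS replicate 2 or 3, 0.0506 without WT 5dw replicate 2, and 0.119 and 0.147 without Act 5dw replicate 1 or 3. Cxcl16 shared 18.5% of its 31-base words with Zmynd15 on the opposite strand, which did not exceed 2.69 RPKM.

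**Figure D3:**
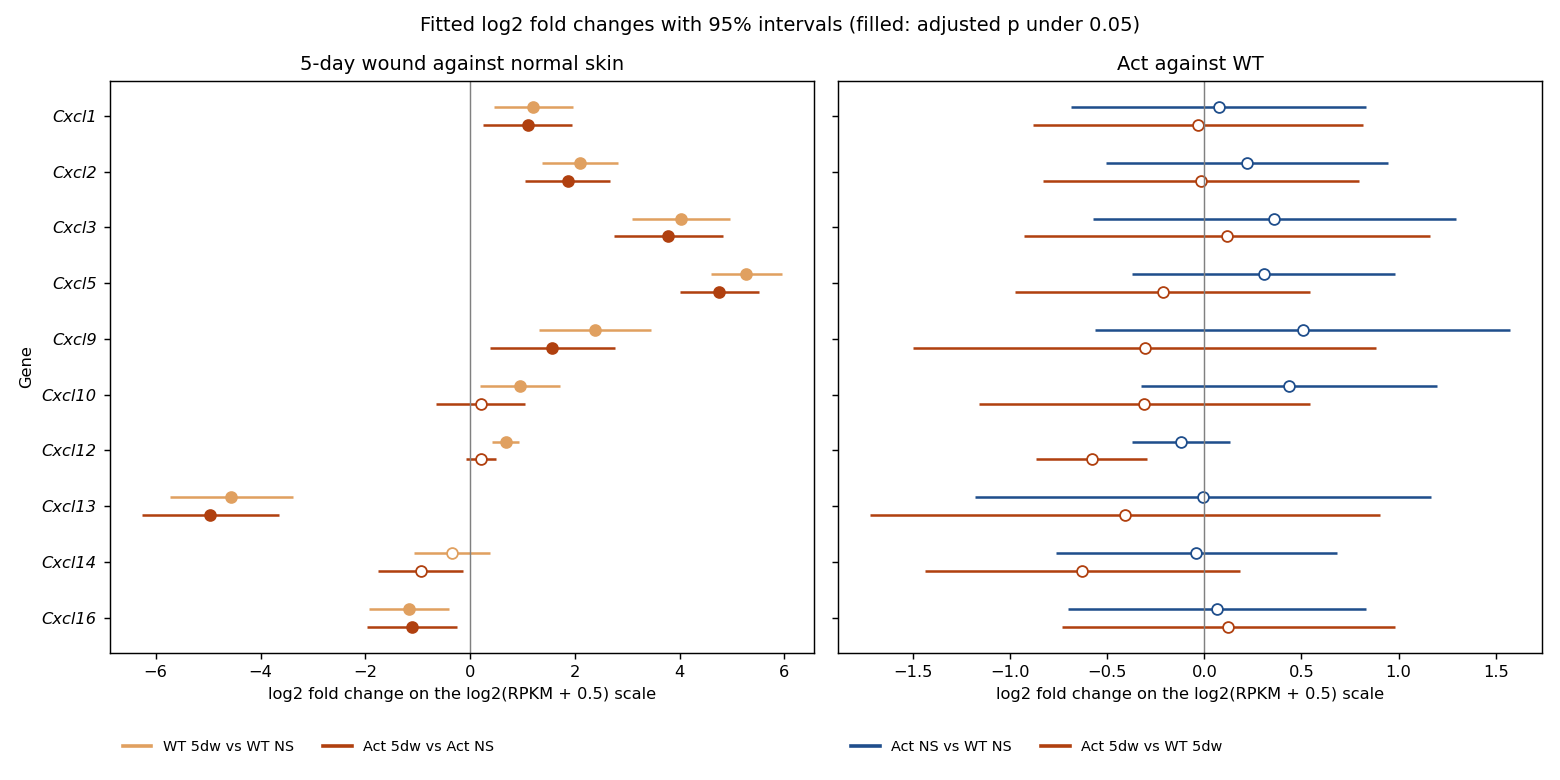
Fitted log2 fold changes on the log2(RPKM + 0.5) scale (horizontal axes) of the 10 chemokines, with 95% intervals, for 5dw against NS in each genotype (left) and for Act against WT in each tissue (right). Filled points passed an adjusted p of 0.05, and on the right none did, with the Act 5dw interval of Cxcl12 running from -0.87 to -0.30.

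Whether activin changed the chemokines was asked in each tissue. In NS none of the 10 members passed the limma test of Act against WT, where 0.0167% of all tested genes did, none had an unadjusted p under 0.05, as 824 of all 11979 genes did, and 0 members passed in limma-voom on whole reads. The log2FC values ran from -0.12 for Cxcl12 to 0.51 for Cxcl9, against -0.11 for the median gene. They moved with the settings, from -0.50 to 0.78 for Cxcl13 and from 0.062 to 1.195 for Cxcl9, and none was called. The 95% intervals of the reported fit were wide for the ELR genes, from -0.68 to 0.83 for Cxcl1 and from -0.37 to 0.98 for Cxcl5, and reached from -1.18 to 1.17 for Cxcl13. Cxcl9 and Cxcl10 were higher in the Act NS library of all 3 same-numbered pairs, and with the replicate block their log2FC of 0.51 and 0.43 had adjusted p = 0.583 and 0.536. Cxcl12 was lower in each Act NS library than in each WT NS library, which held for 7.98% of all tested genes, with a log2FC of -0.12 ± 0.12 (adjusted p = 0.768).

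In wounds none of the members passed in limma or limma-voom either, where 0.0334% of all tested genes did, and 1 of the 10, Cxcl12, had an unadjusted p under 0.05, as did 386 of all 11979 genes. Cxcl12 was 56.7 ± 3.69 RPKM (SD, n = 2) in Act 5dw and 85.3 ± 8.58 (SD, n = 3) in WT 5dw, with no overlap between the libraries. Its log2FC was -0.58 ± 0.13 (limma adjusted p = 0.467, 95% interval -0.87 to -0.30), and 24th in the order of p among the 11979 genes tested. Over the alternative settings the value stayed between -0.67 and -0.47 and the adjusted p between 0.192 and 1, so no setting passed. Cxcl5 was also lower in both Act 5dw libraries than in each WT 5dw library, as were 15.2% of all tested genes, with a log2FC of -0.21 ± 0.34 (adjusted p = 1). For the other ELR genes the difference was -0.03 (95% interval -0.88 to 0.81) for Cxcl1, -0.02 (-0.83 to 0.80) for Cxcl2 and 0.12 (-0.93 to 1.16) for Cxcl3. Intervals of this width do not show that the levels were alike.

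The wounding responses of the genotypes were compared directly by an interaction term. None of the members and 0 of all 11979 genes passed the adjusted threshold in limma, or in limma-voom on whole reads, while 400 genes had an unadjusted p under 0.05 in limma. Among the members Cxcl12 alone did, with an interaction of -0.46 ± 0.17 (adjusted p = 0.999, 206th in the order of p). For Cxcl10, called in WT and not in Act, it was -0.74 ± 0.52 (adjusted p = 0.999), so a difference between the genotypes was not shown for either gene. The NS libraries enter both the wounding comparison and the genotype comparison of each genotype, so these values are not independent of each other.

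Other ligands of the family were scarce. Of Pf4, Ppbp, Cxcl11, Cxcl15 and Cxcl17, only Ppbp, a platelet ELR chemokine encoded between Cxcl5 and Cxcl3, passed the filter. It was at most 0.116 RPKM in NS and lay at 1.98 to 4.19 in wounds. It passed only through the wound libraries, where it was high, so no test of wounding is given. The wound median of Pf4 was 0.704 RPKM, Cxcl15 did not exceed 0.506, and Cxcl11 and Cxcl17 stayed below 0.1 in every library.

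Apart from Cxcr4, the signalling receptors of the CXC family were near the floor in these cells. Cxcr1, Cxcr3, Cxcr5 and Cxcr6 stayed below 0.1 RPKM in all 11 libraries and Cxcr2 at or below 0.114. Of the 8 receptors listed, 3 were tested. Cxcr4, the receptor of Cxcl12, was 1.69 to 4.19 RPKM in NS and 0.446 to 1.17 in 5dw. It passed the filter only through the NS libraries, where it was high, so no test of wounding is given. Ackr1, an atypical receptor that binds many chemokines without signalling, was 37.3 to 44.5 RPKM in NS and 4.33 to 13.2 in 5dw, with a log2FC of -2.40 ± 0.26 (adjusted p = 4.3e-05) in WT and -2.76 ± 0.29 (adjusted p = 5.33e-05) in Act, where 48.8% and 36.5% of all tested genes fell. Ackr3, an atypical receptor that takes up Cxcl12, was abundant at 101 to 235 RPKM and was not called (0.03 ± 0.21 in WT, adjusted p = 0.912, and 0.21 ± 0.23 in Act, adjusted p = 0.468).

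**Figure D4:**
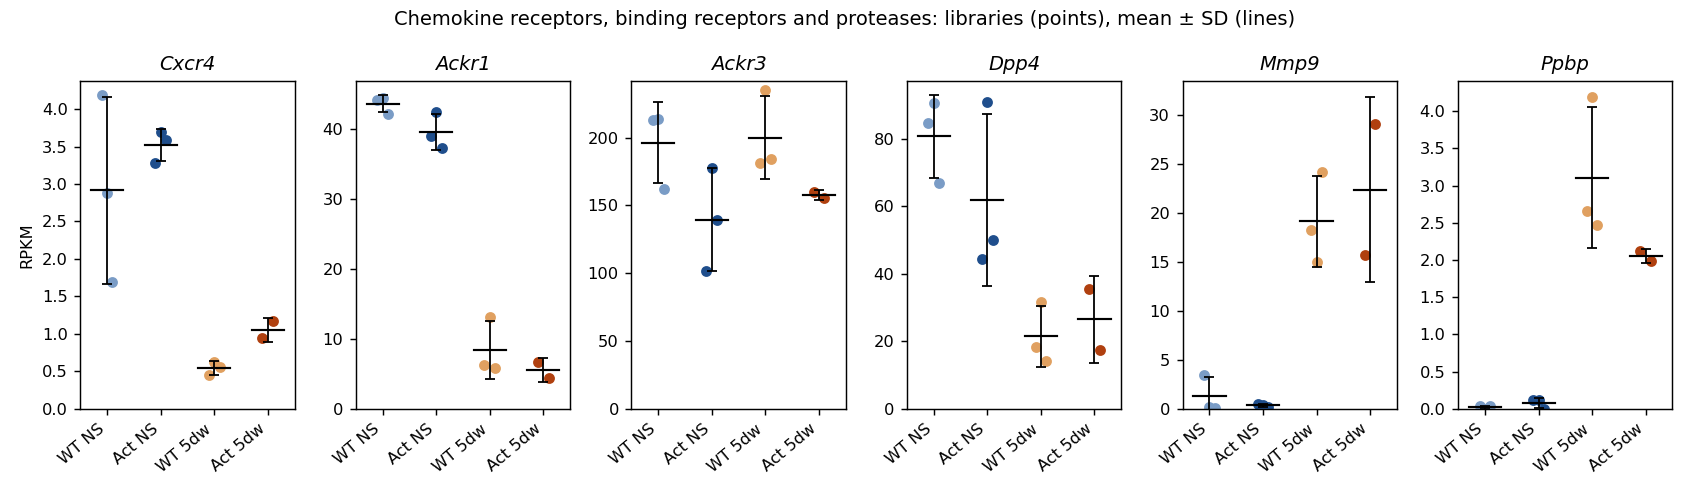
RPKM (vertical axes, each from 0) of chemokine receptors (Cxcr4, Ackr1, Ackr3), of 2 proteases that cut or act on chemokines (Dpp4, Mmp9) and of the ligand Ppbp by group, with 1 point for each of the 11 libraries and lines at the group mean ± SD. Cxcr4, Ackr1 and Dpp4 are lower, and Mmp9 and Ppbp higher, in every wound library than in every NS library, while Ackr3 overlaps.

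Several proteases alter chemokines after secretion. Dpp4, which removes the first residues of Cxcl10 and Cxcl12 and inactivates them, fell, with 44.3 to 91.0 RPKM in NS and 14.2 to 35.6 in 5dw (log2FC -1.96 ± 0.35, adjusted p = 0.000979, in WT and -1.22 ± 0.40, adjusted p = 0.027, in Act). Mmp9, a gelatinase that trims ELR chemokines, was at 3.48 RPKM in WT NS replicate 1, at most 0.531 in the other 5 NS libraries and 15.0 to 29.0 in 5dw. It passed the filter only through the wound libraries, so no test is given for it either. Mmp2, which cleaves Cxcl12, rose (log2FC 0.47 ± 0.15, adjusted p = 0.0208, in WT and 0.66 ± 0.17, adjusted p = 0.0089, in Act). Adam17 fell in WT (-0.44 ± 0.14, adjusted p = 0.0177), close to the median log2FC of -0.40 for all tested genes, 48.8% of which fell, and Adam10, which sheds Cxcl16, was not called in either genotype.

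The pathways that induce these chemokines were listed too. Of 18 genes of interleukin-1, TNF, interleukin-17, Toll-like receptor and NF-kB signalling, 1 rose and 10 fell in WT wounds, where 48.8% of all tested genes fell, with a median log2FC of -0.59 against -0.40 for all tested genes. In Act wounds 1 rose and 11 fell, where 36.5% of all genes fell, with a median of -0.68 against -0.31. The Toll-like receptor genes Tlr4 (-1.25 ± 0.20, adjusted p = 0.000424, in WT) and Tlr2 (-1.34 ± 0.21, adjusted p = 0.000459) fell in both genotypes, as did the NF-kB inhibitor gene Nfkbie (-0.83 ± 0.13, adjusted p = 0.000496) and Traf3ip2, an adaptor of the interleukin-17 receptor (-1.03 ± 0.17, adjusted p = 0.000640). Nfkbiz, a nuclear cofactor of NF-kB, was the 1 gene of the list that rose and is named for that, after its values were seen, with 58.9 to 94.1 RPKM in NS and 136 to 155 in 5dw (log2FC 0.77 ± 0.16, adjusted p = 0.00239, in WT and 0.89 ± 0.18, adjusted p = 0.00285, in Act).

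Of 14 interferon signalling genes, 1 rose and 4 fell in WT, where 48.8% of all tested genes fell, and 0 rose and 7 fell in Act, where 36.5% fell. Ifngr1, a chain of the interferon gamma receptor, lay at 26.7 to 34.5 RPKM in NS and 6.91 to 10.4 in 5dw and fell in both genotypes, with a log2FC of -1.59 ± 0.14 in WT and -1.89 ± 0.16 in Act. Irf9, a partner of the STAT factors, fell by 1.21 ± 0.17 in WT and 1.39 ± 0.19 in Act on the log2 scale (adjusted p = 0.000219 and 0.000297). Stat2, a transcription factor of the interferon response, fell by 0.77 ± 0.18 in WT and 1.38 ± 0.20 in Act (adjusted p = 0.00425 and 0.000406), and Irf1, which interferons induce, by 1.14 ± 0.19 in WT and 1.08 ± 0.21 in Act on the same scale (adjusted p = 0.000578 and 0.00215). Gbp3, an interferon-induced GTPase, was the 1 gene that rose in WT (0.99 ± 0.26, adjusted p = 0.00792) and is named for that, after its values were seen. The median log2FC of this list was -0.17 in WT and -0.44 in Act, against -0.40 and -0.31 for all tested genes.

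Leukocytes and keratinocytes also make these chemokines, and their markers are given beside the wound results. The summed RPKM of 7 neutrophil markers was 0.340 to 1.13 in NS and 3.10 to 21.6 in 5dw, or at most 9.61 without WT 5dw replicate 3, mostly S100a9, while Ly6g, Csf3r and Retnlg stayed below 0.1 in all libraries. Macrophage markers (7 genes) summed to 9.73 to 16.6 RPKM in NS and 10.8 to 15.1 in 5dw. T cell markers (5 genes) summed to 3.89 to 35.3 RPKM in NS, or at most 18.9 without Act NS replicate 2, and 58.4 to 106 in 5dw. Cd3e alone made up 55.5 to 105 RPKM in 5dw. Cd3g, Trac and Cd4 did not exceed 0.592, 0.793 and 1.97 RPKM, and Cd8a stayed below 0.1. The sum thus follows 1 gene and not the T cell markers as a set. The labels list CD3 among the negative markers of the sort, and the paper's methods do not. Keratinocyte markers (11 genes) summed to 929 to 3893 RPKM in NS and 157 to 1392 in 5dw, or at most 425 without WT 5dw replicate 3. Of these, 8 fell in each genotype and 1 rose, Krt6a in WT (log2FC 3.10 ± 0.67, adjusted p = 0.00272), named after its values were seen. Of all tested genes 48.8% fell and 9.45% rose in WT, and 36.5% fell in Act. Endothelial markers (6 genes) summed to 6.15 to 11.2 RPKM in NS and 16.3 to 18.3 in 5dw, mostly Pecam1, pericyte markers (5 genes) to at most 21.1 and 18.9, and adipocyte markers (5 genes) to at most 1.81. The 10 fibroblast markers summed to 11303 to 17132 RPKM in NS and 22876 to 26337 in 5dw, mostly collagens, but 4 rose and 4 fell in WT and 3 rose and 3 fell in Act. The part of these cells in the chemokine values was not tested.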

How the data were processed

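Per the labels and the study's methods, the authors made stranded poly-A libraries, mapped them to GRCm38 in CLC Genomics Workbench and deposited RPKM per gene, which divides by gene length and by all mapped reads; their own test, the edgeR exact test, takes counts and was not run here. Each value is therefore a share of its library. Here the genes that reached an RPKM of 1 in 2 or more libraries were tested on log2(RPKM + 0.5), so fold changes of low genes are understated, with limma 3.58.1 (trend, 4 group means over 11 libraries, residual degrees of freedom 7) in R 4.3.3. p-values were adjusted by Benjamini and Hochberg over all 11979 genes, with a threshold of 0.05. The scripts were tested on simulated data. Whole reads, to a tolerance of 0.03, were recovered for 99.992% of the tested genes, 4602 of them with a gene length found by search, and gave the depths; intervals on reads cover counting error only. Python 3.11.15 was used for the other steps.

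All 10 members are described; of the other lists up to 4 called genes with the smallest adjusted p are named, beside a single gene that rose, with the receptors of the members and the genes nearest to 5 members. The members, lists and tests were chosen with earlier results of these data known. Nothing ties a library to single animals, and each is a pool, so p-values measure the spread between pools. Same-numbered libraries of WT NS and Act NS deviated together over all genes (r = 0.554, 0.423 and 0.334). Those of WT NS and WT 5dw did so weakly (0.188, 0.12 and 0.109), where differently numbered ones reached 0.08. Those of WT 5dw and Act 5dw went either way (-0.078 and 0.189). The paper states that RNA was pooled across sorting sessions, so any pairing by number is inferred from these values alone. No 2 replicates agreed within sampling noise. Coordinates are those of GENCODE M21. Proteins and the promoters of Cxcl5 and Cxcl16 are not analysed here.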

Additional observations from a re-analysis of the deposited data

How the results depend on the processing

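The comparisons were repeated under 22 settings beside the reported one: pseudocounts of 0.1 and 1, no filter on low values, an RPKM filter of 5, median-ratio scaling, quantile normalization, only the groups compared, array weights, a replicate block and leaving out each of the 11 libraries. Limma-voom on whole reads and leaving out both NS libraries numbered 1 were added after seeing the data. No called value changed sign, and 1057 of the 1100 single-gene values kept their side of the threshold. Some uncalled values among these changed sign, as those of Cxcl14 in WT wounds and Cxcl10 in Act wounds did. Cxcl2, Cxcl3, Cxcl5 and Cxcl13 were called in both genotypes under all 22 settings, and Cxcl9 and Cxcl12 in WT.

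In WT wounds 7 to 9 of the 10 members were called under every setting, leave-one-out fits included. In Act wounds 7 were called as reported, 4 with no filter, 4 without Act 5dw replicate 1, 4 to 8 over the leave-one-out fits, 5 without both NS libraries numbered 1 and 8 by limma-voom. The cause was not tested. With no filter all genes of the table enter the adjustment, and Cxcl1 was lost in WT too (adjusted p = 0.062). The genotype comparisons and the interaction gave 0 members under every setting.

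With the replicate block 9 members were called in each genotype, with Cxcl10 (log2FC 0.50, adjusted p = 0.0437) and Cxcl14 (-0.88, adjusted p = 0.0281) added in Act; it changed no other member's call. In Act, where 2 pairs are left, the numbers were not shown to pair the libraries (r = 0.019 and 0.143 for Act 5dw with Act NS). Depth limits Cxcl13 in wounds most, where 49 reads have a 95% counting interval of 36.3 to 64.8.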

Other observations

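The tested genes nearest to 5 of the members over the 11 libraries were found by the root mean square difference of log2(RPKM + 0.5) after centring each gene on its own mean, a measure that uses the same libraries and is a description only. Nearest to Cxcl1 were Noct (0.196), a circadian deadenylase, Sele (0.213), which encodes the adhesion molecule E-selectin, and C330027C09Rik (0.218). Mean Noct was 15.0 RPKM in WT and 19.1 in Act NS, and 34.9 and 36.3 in their wounds. Nearest to Cxcl5 were H19 (0.479), an imprinted long non-coding RNA, Col12a1 (0.550), a fibril-associated collagen, and Ereg (0.575), an EGF receptor ligand. H19 lay at 10.1 and 9.49 RPKM in WT and Act NS and at 261 and 446 in WT and Act 5dw. Cxcl10 lay nearest to Tifa (0.236), an adaptor of TRAF signalling, Pnp2 (0.252) and Hk2 (0.253), which encodes a hexokinase.

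Cxcl12 had Ube2l6 (0.156), an enzyme of ISG15 conjugation, Ssr4 (0.158) and Pbx3 (0.168) nearest. Mean Ube2l6 was 16.1 RPKM in WT skin and 15.7 in Act skin before wounding, and 23.4 and 14.2 in their wounds. For Cxcl14 the nearest were Cd274 (0.263), which encodes PD-L1, Fdx1 (0.275) and Gm5786 (0.283).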
